A study of Mus musculus with 12 samples.

Results

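The cytosolic ribosomal protein genes were examined across sorted germ and somatic cells of the newborn mouse testis. Members were all protein-coding genes named Rpl or Rps with a number, together with Rplp0, Rplp1, Rplp2 and Rpsa, without the S6 kinase genes and without names that mark pseudogenes. The rule found 86 genes among the 54532 rows of the count table, of which 22046 were protein-coding. Of these, 52 belonged to the large subunit by name (Rpl) and 34 to the small subunit (Rps). They held 77 core genes (46 large, 31 small), 8 variant paralogs (Rpl3l, Rpl7l1, Rpl10l, Rpl22l1, Rpl36al, Rpl39l, Rps27l and Rps27rt) and Rps19bp1, a nucleolar binding partner of Rps19 that the name rule also takes.

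The mice carried Tg(Pou5f1-EGFP)2Mnn, in which regulatory sequence of Pou5f1 (OCT4) drives green fluorescent protein (GFP) in germ cells. Pregnant dams were injected late in gestation, on 2 days, with dexamethasone (dex), a synthetic glucocorticoid, or with saline as the control. Their pups received the same agent under the skin on postnatal day 0, and every dex dose was 10 µg per g of body weight. Testes were taken at postnatal day 1 and sorted into GFP+ germ cells and GFP- somatic cells, which gave 4 groups with 3 libraries each: germ cells after saline, germ cells after dex, somatic cells after saline and somatic cells after dex. All animals were male, and each library pooled testes from at least 2 litters dosed separately, so that a library is a mixture of pups. The GFP- sample is every cell without GFP, with Sertoli, stromal and other cells together.

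Ribosomes consist of ribosomal RNA, made by RNA polymerase I and processed in the nucleolus, and a set of ribosomal proteins of which each copy of the particle needs nearly every kind once. The mRNAs of these proteins typically begin with a run of pyrimidines, through which mTOR and Larp1 regulate their translation. In male germ cells the X chromosome, which carries several ribosomal protein genes, is silenced at meiosis, and autosomal paralogs such as Rpl10l and Rpl39l are known to be made in these cells. The authors describe male germ cells at postnatal day 1 as arrested in mitosis and soon to return to it, a stage before meiosis. Ribosomal protein mRNAs have also been copied back into the genome many times as processed pseudogenes, and a short read from such a copy can be hard to place.

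Total counts ran from 18459692 to 25178477 per library. The summed level of 8 germ cell markers was 2367.9 to 2694.2 CPM (counts scaled to library size) in the germ libraries and 7.56 to 9.27 CPM in the somatic libraries. Of 7 Sertoli cell markers the sum was 32.1 to 40.9 CPM in dex germ, 52.1 to 59.8 CPM in saline germ and 3750.5 to 4431.1 CPM in somatic libraries. By the germ and Sertoli cell lists the sorted fractions carried their own markers. Of 5 Leydig cell markers the sum was 85.4 to 200.3 CPM in somatic and 4.66 to 11.6 CPM in germ libraries. Of 5 endothelial markers it was 246.9 to 322.3 CPM in somatic and 66.3 to 80.5 CPM in germ libraries. The sum of 5 lymphocyte markers went the other way, at 0.737 to 4.67 CPM in somatic and 9.22 to 17.4 CPM in germ libraries. Labels gave no sequencing batch or date.

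Sequences of 3 pseudogene copies are shown first, since they held more counts than their parents Rpl26, Rps10 and Rpl34. In each pair the stretch comes from the annotated transcripts (GENCODE, GRCm38), lies in the coding part of the parent, and has the bases at which parent and copy differ in capitals. Over their full alignment Rpl26 and the processed pseudogene Gm15772 differed at 2 of 438 bases, Rpl34 and Rpl34-ps1 at 2 of 354 and Rps10 and Rps10-ps2 at 5 of 496. The stretches of Rpl26 and Rps10 each join 2 exons, across which the copies run without a break.
Rpl26 (chr11:68902422-68903187, + strand, 2 exons): cggaaggatgacgaagttcaggttgttcgC
Gm15772 (chr5:3236578-3236607, + strand): cggaaggatgacgaagttcaggttgttcgT
Rps10 (chr17:27631248-27632300, - strand, 2 exons): tacagaaggagcgcTgtgccccctggagcT
Rps10-ps2 (chr16:20822233-20822262, - strand): tacagaaggagcgcCgtgccccctggagcC
Rpl34 (chr3:130729084-130729113, - strand): accaagaaggttgggaaagcacctaaatcT
Rpl34-ps1 (chr6:71124712-71124741, + strand): accaagaaggttgggaaagcacctaaatcC

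The paralogs expressed in germ cells differ from their X-linked parents far more than the pseudogene copies do. Rpl10 and Rpl10l had 102 differences over 658 aligned bases (84.5% identity), Rpl39 and Rpl39l 26 over 171 (84.8%) and Rps4x and Rps4l 157 over 786 (80%). Capitals again mark the differences within the pair, in the same annotation and build.
Rpl10 (chrX:74270993-74271022, + strand): ATtgtcATcatgggCcgCcgCccCgcCcgG
Rpl10l (chr12:66284337-66284366, - strand): GCtgtcGCcatgggTcgTcgTccGgcTcgC
Rpl39 (chrX:37082712-37082741, - strand): cTaagAgAagacaCtggagGAgaacGaaGC
Rpl39l (chr16:10174425-10174454, + strand): cCaagCgGagacaTtggagACgaacCaaAT
Rps4x (chrX:102186413-102186442, - strand): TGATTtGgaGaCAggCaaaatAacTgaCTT
Rps4l (chr6:148355195-148355224, + strand): CTCGCtAgaCaGCggAaaaatCacCgaTGC

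Ribosomal protein genes took a smaller share of the counts in germ cells than in somatic cells. They held 2.78, 3.01 and 3.15% of all counts in the dex germ libraries and 2.76, 2.9 and 3.04% in the saline germ libraries. In somatic cells they held 4.39, 4.77 and 4.33% with dex and 4.23, 3.97 and 4.48% with saline. Every germ library was below every somatic library, while dex and saline libraries of the same population overlapped. Since these were bulk samples of sorted cells, fewer ribosomal protein transcripts per cell and more RNA of other genes per cell cannot be told apart.

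The division between the subunits was nearly constant. Large subunit genes received 1.38 to 1.48 times the counts of small subunit genes over the 12 libraries, with means of 1.43 ± 0.0503 (SD, n = 3) in dex germ, 1.43 ± 0.0153 in saline germ, 1.4 ± 0.0153 in dex somatic and 1.44 ± 0.0208 in saline somatic libraries. In somatic cells the dex libraries (1.38 to 1.41) lay just below the saline libraries (1.42 to 1.46), and in germ cells they overlapped. Summed FPKM, the deposited levels scaled to library size and gene length, gave a ratio for the core genes of 1.53 ± 0.0819 and 1.53 ± 0.0153 in dex and saline germ cells and of 1.46 ± 0.02 and 1.5 ± 0.0306 in dex and saline somatic cells. The gene lengths given beside them ran from 383 to 6270 bases for the core genes, so that levels of different genes also depend on the annotation.

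**Figure D1:**
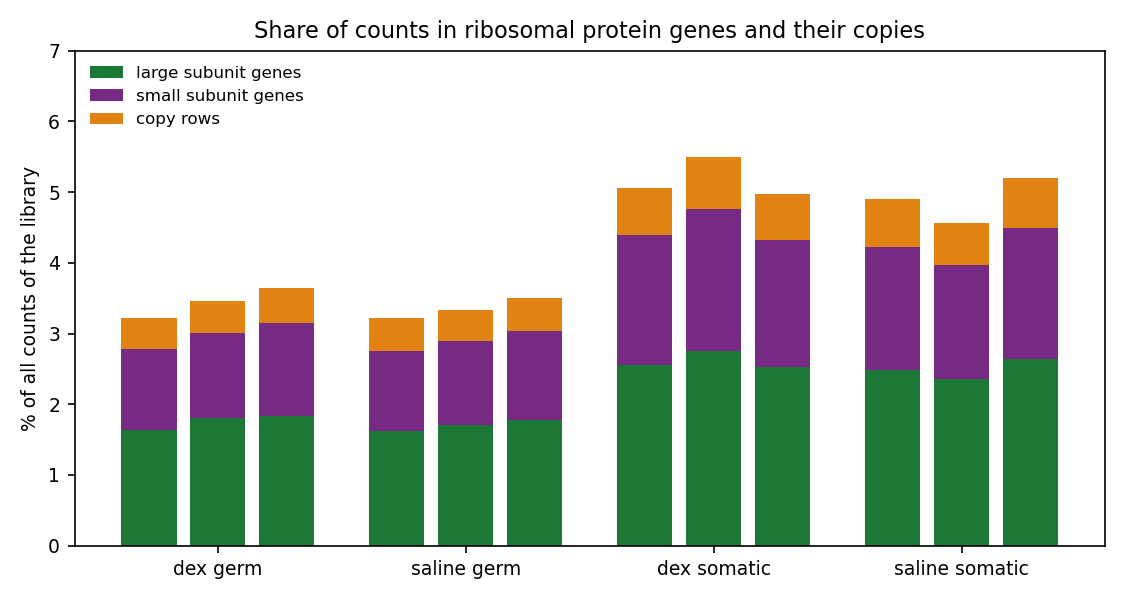
Share of all counts of each library (% on the vertical axis) in large subunit genes, small subunit genes and pseudogene or other copy rows, stacked, for the 12 libraries in 4 groups. Members alone (the lower 2 segments) reached 2.76 to 3.15% in germ libraries and 3.97 to 4.77% in somatic libraries, and copy rows added 0.433 to 0.743%.

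Germ cells were then compared with somatic cells within the saline libraries. Of the 86 members, all of which passed the filter on low counts, 67 were lower and 6 were higher in germ cells at an adjusted p of 0.05 or less by the quasi-likelihood test of edgeR with Benjamini-Hochberg adjustment over all 18870 genes tested. Among all genes 36.7% were lower and 39.8% were higher. The median log2 fold change of members was -0.70 beside 0.07 for all genes. In each of the 67 genes called lower, all 3 germ libraries were below all 3 somatic libraries.

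Both subunits moved alike. Of the 46 core large subunit genes 38 were lower and 0 higher, and of the 31 core small subunit genes 26 were lower and 1 higher, with a median of -0.77 in each. The 0 is from the same edgeR test, and it was also 0 at an unadjusted p under 0.05. The dex libraries gave 68 members lower and 4 higher of 86, beside 35.7 and 40.5% of all 18778 genes tested, with a median of -0.81 beside 0.12 for all genes. There the medians were -0.87 for the large and -0.91 for the small subunit core genes. Between the treatments, which share no library, 65 members were lower in both, 2 in saline alone and 3 in dex alone.

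**Figure D2:**
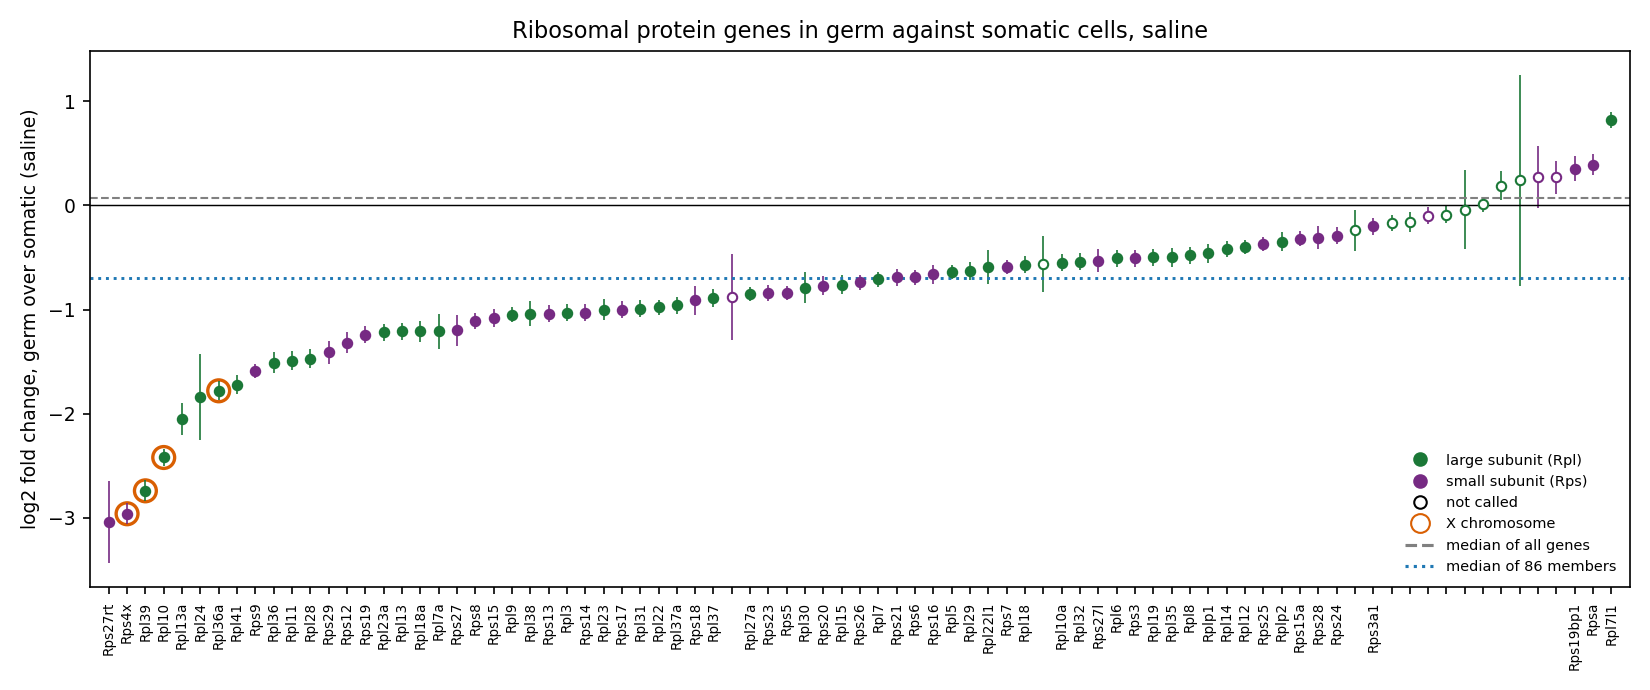
Log2 fold change of germ over somatic cells in saline libraries (vertical axis, bars are the standard error of the fit, n = 3 against 3) for 83 of the 86 members, ordered by value. Green points are large and purple points small subunit genes, open points (without a name on the axis) were not called, rings mark the X chromosome, and the dotted line at -0.70 is the median of the members against the dashed line at 0.07 for all genes; Rpl3l, Rpl10l and Rpl39l, nearly without counts in somatic cells, are left out.

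Of the core genes, the X-linked Rps4x, Rpl39 and Rpl10 had the lowest log2 fold changes in saline. All 4 core genes on the X chromosome, Rps4x, Rpl39, Rpl10 and Rpl36a, were lower in germ cells, with a median of -2.58 beside -0.74 for the 73 autosomal core genes. Over all 741 X-linked genes tested, 345 were lower and the median was -0.31, so most X-linked genes did not share the size of this difference.

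Rps4x, a protein of the small subunit, stood at 77.8, 86.3 and 103.8 FPKM in saline germ and 631.6, 623.8 and 658.5 FPKM in saline somatic libraries, a log2 fold change of -2.96 ± 0.10 (SE, adjusted p = 1.3e-10, edgeR). Rpl39, a very small protein at the exit of the peptide tunnel, stood at 14.2, 13 and 15.1 FPKM in germ and 88.8, 77.2 and 93.1 FPKM in somatic libraries (-2.74 ± 0.10). Rpl10, which completes the large subunit late in its assembly, stood at 85, 87.5 and 82 FPKM in germ and 410.7, 410.5 and 430.6 FPKM in somatic libraries (-2.42 ± 0.08). For these genes the lowest somatic library was several times the highest germ library. Rpl36a, the fourth X-linked gene, was lower by a smaller amount, with 55.8, 53.7 and 58.8 FPKM in germ and 171.2, 158.0 and 201.7 FPKM in somatic libraries (-1.78 ± 0.09).

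The dex libraries, which are separate samples, gave the X-linked genes similar values. Rps4x stood at 103.5, 110.5 and 113.5 FPKM in dex germ and 723.3, 770.1 and 672.3 FPKM in dex somatic libraries (-2.83 ± 0.09). Rpl10 stood at 82.1, 75.3 and 88.9 FPKM in germ and 449.0, 521.1 and 460.6 FPKM in somatic libraries (-2.65 ± 0.09). Rpl39 (-2.74 ± 0.12) and Rpl36a (-1.88 ± 0.12) did not overlap between the populations either, and the median of the 4 core genes was -2.69 beside -0.87 for the autosomal core genes.

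Autosomal paralogs of the first 3 of these genes were abundant in germ cells. Rpl10l stood at 133.5, 133.5 and 138.2 FPKM in saline germ and at 120.3, 146.9 and 140.9 FPKM in dex germ libraries. In somatic libraries it received 0 to 2 counts each, and germ cells were 2348.8-fold higher in saline (95% interval 917.0 to 8622.3) and 4399.4-fold higher in dex (1217.5 to 36332.1), with exact binomial intervals that cover counting error only. The paralog made up 61.4 ± 1.21% (SD, n = 3) of the summed FPKM of Rpl10 and Rpl10l in saline germ cells and 62.3 ± 3.45% in dex germ cells. By FPKM the paralog was thus above its parent in germ cells of both treatments. This order rests on the gene lengths, 1023 bases for Rpl10l and 2053 for Rpl10. In CPM, without length, Rpl10l was below Rpl10 in every germ library. Saline germ libraries had 135.2, 134.3 and 137.9 CPM of Rpl10l against 172.7, 176.7 and 164.2 CPM of Rpl10. Dex germ libraries had 119.8, 145.9 and 139.6 against 164.2, 150.1 and 176.9 CPM.

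Rpl39l stood at 78.1, 86.8 and 97.4 FPKM in saline germ and at 66, 86.3 and 87.5 FPKM in dex germ libraries. It had no count in the dex somatic libraries, where germ cells were at least 1399.7-fold higher against a floor of 3 counts over the group, and 5 counts in all in saline somatic libraries, where they were 984.7-fold higher (421.6 to 3034.0). Rpl39l was 86.1 ± 1.25% of the pair in saline and 83.4 ± 0.804% in dex germ cells. The sum of Rpl39 and Rpl39l was 101.5 ± 10.2 FPKM in saline germ and 86.5 ± 8.22 FPKM in saline somatic cells, a difference of the order of the spread between libraries. This closeness rests on the gene lengths, 831 bases for Rpl39l and 1434 for Rpl39. In CPM, without length, saline germ libraries had 64.2, 71 and 78.9 of Rpl39l and 20.1, 18.4 and 21.1 of Rpl39. Saline somatic libraries had 134.1, 122.0 and 140.1 CPM of Rpl39, so by CPM the pair was lower in germ cells.

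Rps4l, which the annotation lists as a transcribed processed pseudogene and which is therefore no member, followed the same course. It stood at 388.9, 381.9 and 386.3 FPKM in saline germ and 74.4, 64.4 and 82.6 FPKM in saline somatic libraries (log2 fold change 2.27 ± 0.09, adjusted p = 3.69e-10, edgeR). It was 81.2 ± 2.27% of the summed FPKM with Rps4x in saline germ and 10.3 ± 0.907% in saline somatic cells. In FPKM the Rpl10 and Rps4 pairs did not reach the somatic level. The Rpl10 pair had 219.9 ± 1.31 against 417.3 ± 11.6 FPKM and the Rps4 pair 475.0 ± 13.1 against 711.8 ± 26.9 FPKM.

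Rpl36a had no such partner. Rpl36al, its autosomal paralog, stood at 1.34 to 1.52 FPKM in saline germ and 0.993 to 1.78 FPKM in saline somatic libraries, which overlap, and was 2.5 ± 0.141% of the pair in germ cells.

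**Figure D3:**
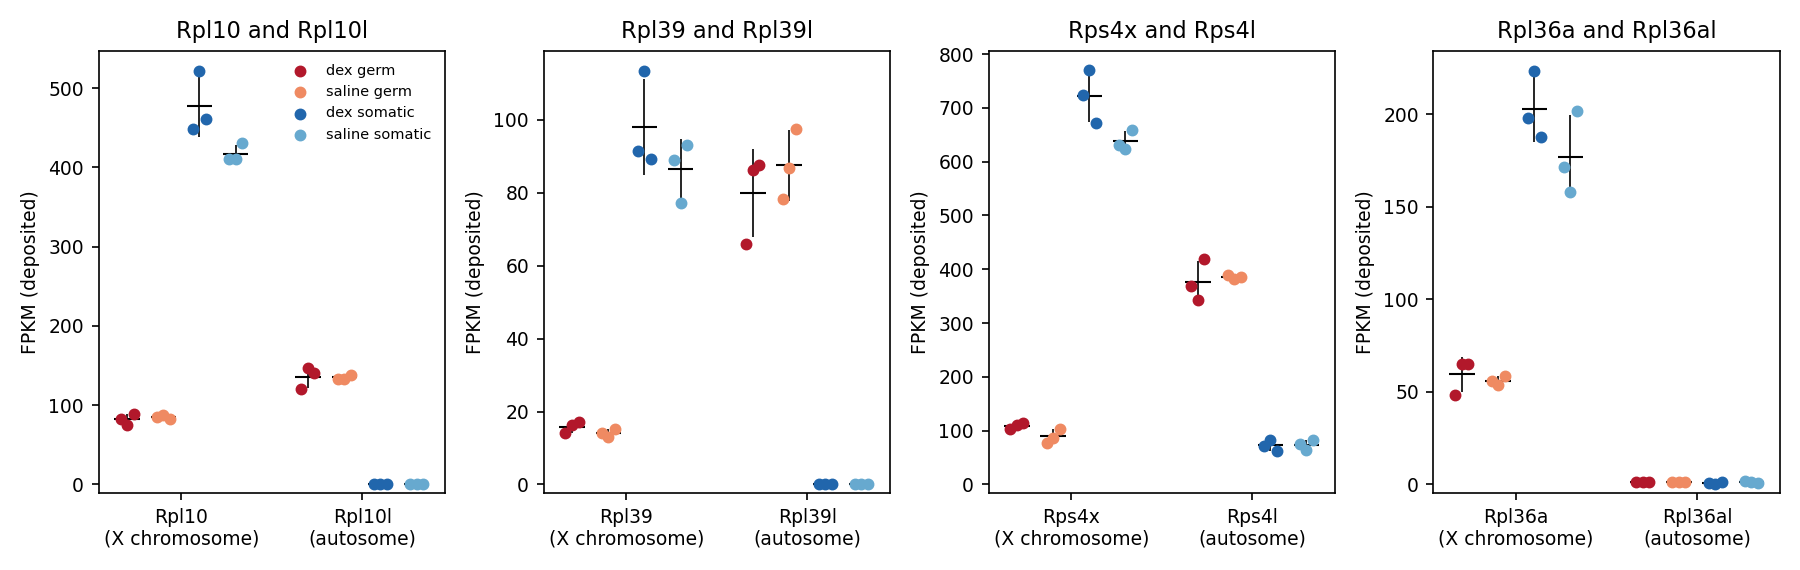
FPKM (vertical axis, deposited values) of 4 X-linked genes and their autosomal paralogs in every library, colored by group, with the mean and SD of 3 libraries as black lines. In FPKM, Rpl10l, Rpl39l and Rps4l lie above their parents in germ cells and below them in somatic cells. Rpl36al stays at 0.508 to 1.78 FPKM in all 12 libraries. In CPM, without gene length, Rpl10l lies below Rpl10 in germ cells as well.

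The paralogs of autosomal genes were less marked. Rpl3l, known from striated muscle, stood at 3.29 to 3.6 FPKM in saline germ libraries and at 0 to 0.0728 FPKM in saline somatic libraries, 129.3-fold higher by counts (43.9 to 629.9), and was 2.28 ± 0.227% of the pair with Rpl3 in germ cells. Rpl7l1, a paralog of Rpl7, was higher in germ cells, at 45 to 49.9 FPKM in saline germ and 24.2 to 25.6 FPKM in saline somatic libraries (0.82 ± 0.08). Rpl22l1 and Rps27l were lower in germ cells (-0.59 ± 0.16 and -0.53 ± 0.11), and both still made a larger part of their pair there. Rpl22l1 was 19.2 ± 3.08% of its pair in saline germ and 15.4 ± 1.96% in saline somatic cells, and Rps27l 36.2 ± 1.9% and 27.1 ± 6.43%, with libraries that overlapped for the first and did not for the second.

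Autosomal core genes spanned a wide range. Rpl41, which encodes a peptide of very few residues, stood at 221.0 to 241.7 FPKM in saline germ and 624.2 to 808.1 FPKM in saline somatic libraries (-1.72 ± 0.09). Rps9, a small subunit protein near the mRNA channel, stood at 141.7 to 151.8 FPKM in germ and 384.9 to 426.5 FPKM in somatic libraries (-1.59 ± 0.07), and Rpl36 at 264.9 to 327.4 and 703.6 to 899.8 FPKM (-1.51 ± 0.10). Rpl5 and Rpl11, which with 5S RNA form the particle that binds Mdm2, were lower by unequal amounts (-0.64 ± 0.07 and -1.49 ± 0.09).

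The stalk genes, whose proteins recruit the elongation factors, had smaller differences, and Rplp0 and Rplp1, though not Rplp2, were among the highest members in FPKM. Rplp1 stood at 1181.6 to 1420.7 FPKM in saline germ and 1514.0 to 1791.4 FPKM in saline somatic libraries (-0.46 ± 0.09), Rplp2 was lower by a similar amount (-0.35 ± 0.09), and Rplp0 was not called (-0.17 ± 0.08, adjusted p = 0.081). Rps6, the substrate of the S6 kinases, stood at 375.7 to 400.3 FPKM in germ and 544.7 to 595.0 FPKM in somatic libraries (-0.69 ± 0.07).

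Rpsa, a small subunit protein also known as a laminin receptor, was the core gene called higher in germ cells, at 536.8, 610.6 and 721.1 FPKM against 453.5, 402.0 and 458.0 FPKM (0.39 ± 0.10, adjusted p = 0.00405). In dex libraries Rpsa did not differ beyond its error (0.07 ± 0.09, adjusted p = 0.483). Rps19bp1 was also higher in saline germ cells (0.35 ± 0.12, adjusted p = 0.0228), and this call was lost when any of 4 single libraries was left out (saline germ 1 or 3, saline somatic 1 or 2, adjusted p 0.0562 to 0.12) and with an offset for gene length.

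Assignment of reads between genes and their copies bore on some members. A member was counted as copied where at least 20% of the 64-base words of its transcripts also occurred in transcripts of other genes, which took 45 members (26 large, 19 small) and left 41 uncopied. Just inside the limit were Rps10, Rps15 and Rps18 (each 20.5%), and just outside were Rpl26 (19.8%), Rpl10a (19.5%) and Rpl7 (17.9%). In saline libraries 36 of the 45 copied and 31 of the 41 uncopied members were lower in germ cells, with medians of -0.84 and -0.57. In dex libraries they were 37 and 31, with medians of -0.93 and -0.70. The uncopied set holds Rpl3l, Rpl10l and Rpl39l. In saline, at a limit of 50% of words, the median was -0.70 for the 78 uncopied and -0.86 for the 8 copied members. At a limit of 10% it was -0.48 for the 21 uncopied and -0.79 for the 65 copied members. With 100-base words the medians were -0.64 and -0.77.

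From the other side, 339 non-member rows, 324 of them pseudogenes, shared at least 20% of their own words with a member. Such copy rows existed for 71 members and held 13.4% of the summed counts of members and copies. For 7 members the copies held more counts than the parent: Rpl34 (95.7% of the counts in copies), Rps10 (93.9%), Rpl26 (90.7%), Rpl21 (87.7%), Rps18 (77.3%), Rpl17 (77.1%) and Rpl24 (63.2%).

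Rpl26 and its leading copy varied in opposite directions in saline libraries. Rpl26 stood at 15.8, 134.4 and 16.4 CPM in the 3 saline germ libraries and at 6.7, 126.8 and 6.86 CPM in the saline somatic libraries. Gm15772, with the sequence shown at the outset, stood at 429.7, 300.1 and 424.2 CPM and at 657.7, 390.7 and 632.5 CPM in the same order. Where the parent was high the copy was low, in the second library of either group. In dex somatic libraries, library 3 likewise had the highest Rpl26 (95.5 CPM) and the lowest Gm15772 (596.3 CPM). In dex germ libraries this did not hold. Rpl26 was highest in library 3 (92.4 CPM), where Gm15772 was at 482.3 CPM, and Gm15772 was lowest in library 2 (426.6 CPM). The coefficient of variation of Rpl26 in saline somatic libraries was 148% alone and 12.9% for Rpl26 with its copies, and in saline germ libraries 123% and 1.28%.

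**Figure D4:**
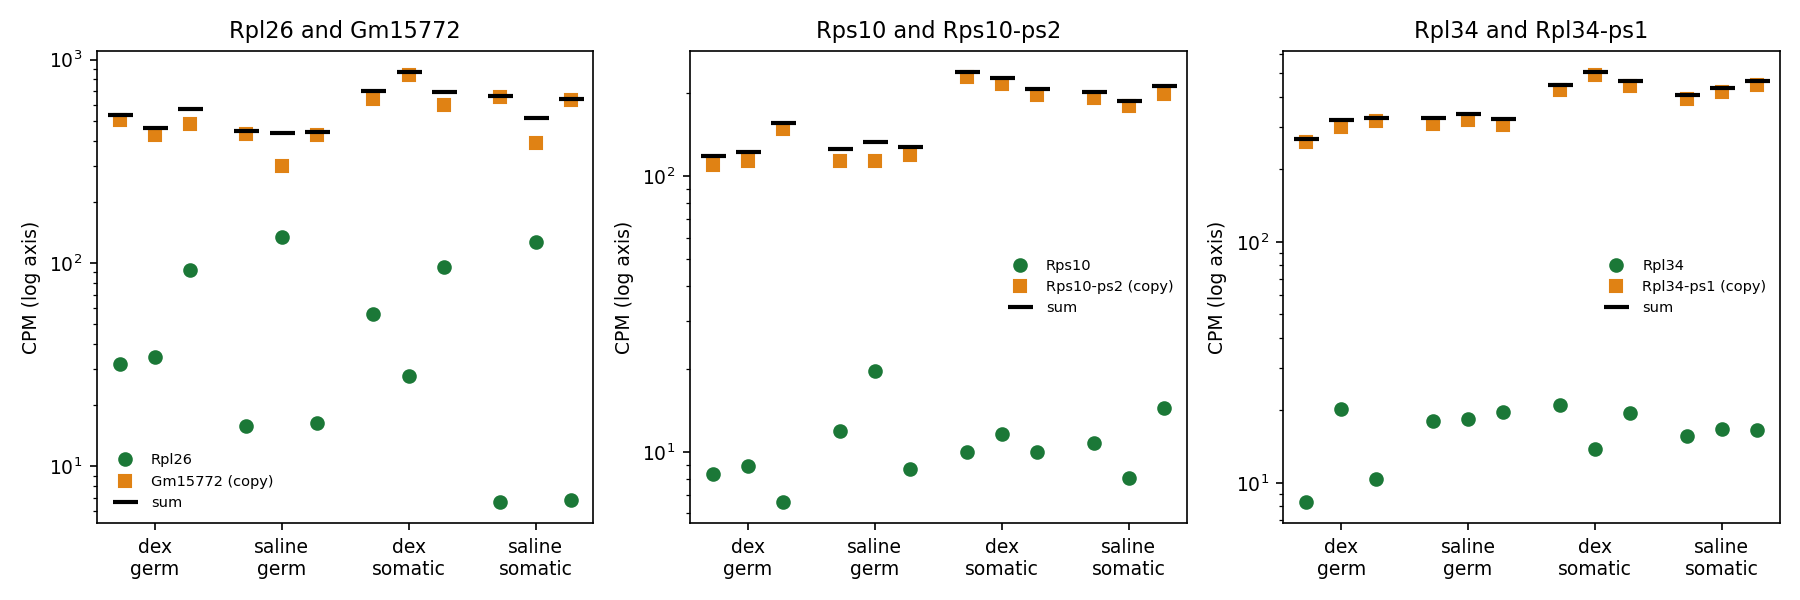
CPM on a log axis of 3 members (green circles), their leading pseudogene copy (orange squares) and the sum of both (black bars) in the 12 libraries, by group. The copy holds most counts in each panel, Rpl26 ranges from 6.7 to 134.4 CPM, and within each treatment the sums lie lower in germ than in somatic libraries.

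Adding each copy row to its parent before the fit, an alternative chosen after seeing the data, raised the number of members called. In saline libraries 73 of 85 genes were then lower and 7 higher in germ cells (36.9% of all genes lower), and in dex libraries 73 and 4 (36.0% lower), where Rps27rt was joined with Rps27. Rpl17 moved from -0.24 to -1.16, Rpl26 from 0.24 to -0.48, Rps10 from 0.27 to -0.66 and Rpl34 from 0.19 to -0.41, and each was then called. Of the 13 members not called in saline libraries, Rps27a was also called then (-0.88 ± 0.35, adjusted p = 0.0383), whereas Rpl4, Rpl27 and Rpl35a, for example, were not.

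Spread between replicates was similar for copied and uncopied genes in germ libraries and larger for copied genes in somatic libraries, a description without a test. The median coefficient of variation of copied core genes was 11% in dex germ, 5.65% in saline germ, 8.18% in dex somatic and 8.19% in saline somatic libraries, and that of uncopied core genes was 10.8, 5.81, 6.72 and 4.76% in the same order. Rps27a, which encodes a ribosomal protein fused to ubiquitin, was the most variable of the copied core genes in every group (49.4 to 79.8%), at 520.4, 169.0 and 484.1 CPM in saline somatic libraries and 169.1, 582.5 and 157.9 CPM in dex somatic libraries. Unlike Rpl26, it kept a variation of 43.7 to 72.5% with its copies added.

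Overlap with other annotated rows touched 3 further values. Rpl24, at 0.327 to 3.42 FPKM the lowest of the core genes in each group, shares 43% of its words with Gm28037, a row at the same locus with 0 counts in every library. Rpl13a, at 4.5 to 27.2 FPKM, shares 20.1% with Gm45713, likewise at 0, and Rps10 shares 17.7% with RPS10-NUDT3, also at 0. Counts of these genes may be incomplete, and their part in the low levels was not tested. Rpl13a and Rpl24 were called lower in saline germ cells (-2.05 ± 0.15 and -1.84 ± 0.41), and both are uncertain for this reason.

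Dex was compared with saline in germ cells to ask whether the treatment changed these genes. The members stayed near 0: their median log2 fold change was -0.02 beside -0.00 for all genes, 36 of 86 lay above 0, and 1 was called, beside 1.25% of all 18550 genes tested. Core large and small subunit genes had medians of -0.05 and -0.01, and 0 of 77 core genes were called by edgeR, with 13 at an unadjusted p under 0.05 beside 14.7% of all genes, and DESeq2 called 1 of them, Rps10. The 3 dex libraries were all above the 3 saline libraries for 6 members and all below for 3, where 10.5 and 9.55% of all genes were. Both shares of members were under this background.

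Rps27rt, an intronless copy of Rps27 on chromosome 9, was the gene called. It stood at 67.7, 46.6 and 67.2 FPKM in dex germ and 37.7, 35 and 31.1 FPKM in saline germ libraries, without overlap (0.78 ± 0.17, adjusted p = 0.037). In saline it was far lower in germ than in somatic libraries, where it stood at 116.5, 208.5 and 463.5 FPKM (-3.04 ± 0.39, adjusted p = 1.67e-05). Its transcript and that of Rps27 were identical over 341 aligned bases, so that reads from this stretch cannot be assigned to either gene, and Rps27 differed the other way (-0.19 ± 0.13, adjusted p = 0.551). The sum of both and their copies did not differ (-0.00 ± 0.11, adjusted p = 0.995). The call was also lost when dex germ 1 or 3 or saline germ 1, 2 or 3 was left out, with adjusted p from 0.0765 to 0.133 and log2 fold changes from 0.69 to 0.85.

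Other members named by rank of p were not called. Rpl4 had 960.6, 951.8 and 1017.8 FPKM with dex and 798.0, 813.4 and 891.4 FPKM with saline (0.20 ± 0.06, adjusted p = 0.129), and Rps4x a log2 fold change of 0.27 ± 0.09 (adjusted p = 0.174). Below 0 were Rpl41, at 146.5, 203.4 and 210.2 FPKM with dex and 221.0, 241.7 and 233.6 FPKM with saline (-0.34 ± 0.11, adjusted p = 0.141), Rps10 (-0.76 ± 0.25, adjusted p = 0.16) and Rps19bp1 (-0.37 ± 0.13, adjusted p = 0.183). The value of Rps10 became 0.01 ± 0.10 with its copies added. The germline paralogs Rpl10l and Rpl39l overlapped between treatments, as the values above show.

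In somatic cells the same comparison gave values mostly above 0. Of 83 members tested, 68 lay above 0 with a median of 0.12, beside -0.01 for all genes, and 0 were called, beside 3.91% of all 16766 genes tested. Rpl3l, Rpl10l and Rpl39l did not pass the filter on low counts there. At an unadjusted p under 0.05 there were 18 higher and 1 lower by edgeR, beside 8.90% higher and 7.21% lower among all genes. DESeq2 called 5 members higher (Rpl31, Rps14, Rps15a, Rps24 and Rpsa) and 0 lower, and it called 5.86% of all genes in either direction. The share of all genes that it called higher was not taken, so this count has no background in its own direction. Dex libraries were all above saline libraries for 20 members and all below for 1, where 9.38 and 12% of all genes were.

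Medians were alike for subunits and for copies, while small subunit genes had a small p more often by count. The median was 0.13 for the 46 core large and 0.15 for the 31 core small subunit genes, and 0.12 for copied as for uncopied members. Unadjusted p was under 0.05 for 6 of the 46 large and 13 of the 31 small subunit genes, and 12 of those 13 were above 0. All dex libraries lay above all saline libraries for 8 of the large and 12 of the small subunit core genes, and the difference between the subunits was not tested. With copies added the median of all members was 0.13 and 0 were called.

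Rpsa stood at 528.0, 610.4 and 517.3 FPKM in dex somatic and 453.5, 402.0 and 458.0 FPKM in saline somatic libraries, without overlap (0.33 ± 0.09, adjusted p = 0.0505), and at 0.22 (adjusted p = 0.247) with its copies added. Rps24, mutated in some cases of Diamond-Blackfan anemia, stood at 131.6, 157.1 and 136.5 FPKM against 116.4, 102.2 and 118.0 FPKM (0.33 ± 0.09, adjusted p = 0.0513). Rpl31 stood at 315.0, 358.8 and 308.3 FPKM against 266.2, 238.6 and 284.6 FPKM (0.31 ± 0.09, adjusted p = 0.0699). These genes thus came close to the threshold without passing it. Below 0 were Rps18 (-0.25 ± 0.11, adjusted p = 0.289, and -0.05 ± 0.08, adjusted p = 0.832, with its copies added), Rpl7a (-0.29 ± 0.16, adjusted p = 0.415) and Rpl15 (-0.10 ± 0.08, adjusted p = 0.608), of which only Rps18 did not overlap between groups, and it did with its copies added.

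Sums of cell type markers differed between dex and saline in both fractions. The summed level of 7 peritubular and stromal markers was 13035.7 to 15576.5 CPM in dex somatic and 8219.4 to 11058.4 CPM in saline somatic libraries. That of 7 macrophage markers was 19.8 to 28.5 and 47.3 to 81.3 CPM, that of 5 lymphocyte markers 0.737 to 1.72 and 4.35 to 4.67 CPM, and none of these overlapped. That of 6 erythroid markers, at 85.3 to 299.0 and 256.1 to 394.2 CPM, overlapped. Every marker of the first and second lists had counts in both groups, and 2 lymphocyte markers and 1 erythroid marker had none in dex somatic libraries. The same 5 lymphocyte markers summed to more in germ libraries, at 9.22 to 17.4 CPM with dex and 12.1 to 16.7 CPM with saline. A level of lymphocytes can therefore not be read from this sum. In germ libraries the sums that did not overlap were those of Sertoli markers, at 32.1 to 40.9 CPM in dex and 52.1 to 59.8 CPM in saline, of Leydig markers, at 4.66 to 8.63 and 8.77 to 11.6 CPM, and of erythroid markers, at 4.33 to 6.89 and 7.53 to 9.07 CPM. Their part in the values of the ribosomal protein genes was not tested.

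**Figure D5:**
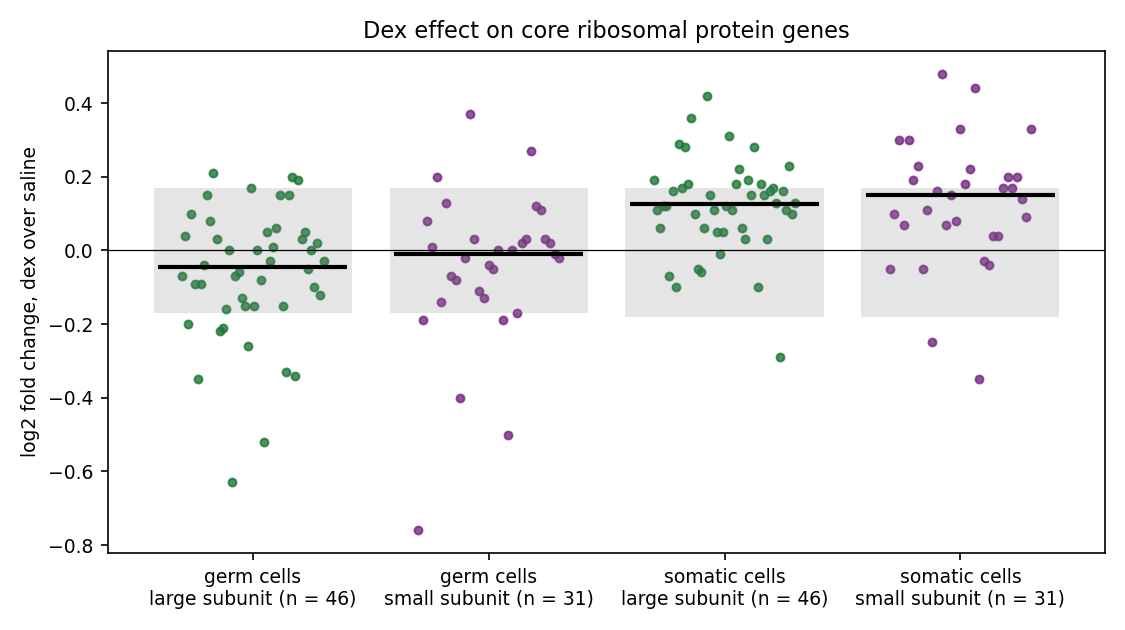
Log2 fold change of dex over saline (vertical axis) for each core gene of the large (green, n = 46) and small (purple, n = 31) subunit in germ and somatic cells. Black lines are medians (-0.05 and -0.01 in germ, 0.13 and 0.15 in somatic cells) and grey bands the middle 50% of all genes tested; most somatic points lie above 0 within the band.

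The dex effect was not shown to differ between the populations for any member. In a contrast over all 12 libraries (germ minus somatic) 0 of 86 members were called by edgeR, beside 0.827% of all 20551 genes tested, and 0 by DESeq2. At an unadjusted p under 0.05 there were 10, 9 of them below 0. The share of all genes under this p is not given here, so this count has no background beside it. The median was -0.12 beside 0.03 for all genes, with -0.15 for the large and -0.11 for the small subunit core genes. The smallest p below 0 belonged to Rps24 (-0.34 ± 0.12, adjusted p = 0.221), Rpl37a (-0.39 ± 0.14, adjusted p = 0.23) and Rps19bp1 (-0.53 ± 0.19, adjusted p = 0.233). Above 0 were Rps27rt (0.78 ± 0.66, adjusted p = 0.683), Rpl3 (0.16 ± 0.13, adjusted p = 0.684) and Rpl39l, for which no fold is given since somatic cells were at the floor.

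Runs of pyrimidines around the annotated start were present in some core members and absent from others. A run of at least 8 bases of C or T, on the coding strand, within 20 bases before to 30 bases after the RefSeq start (GRCm38.p6) was present in 32 of the 57 core members with an entry (56.1%) and in 21.5% of all 27025 genes. Of the 8 variant paralogs 2 had such a run. The stretches below show a gene with a long run, Rps6, and the Rpl39 pair, with the longest run in capitals. The marked runs of Rpl39 and Rpl39l lie wholly before the annotated start and so outside the annotated transcript. A match describes letters in this window and no site.
Rps6 (chr4:86857349-86857378, - strand): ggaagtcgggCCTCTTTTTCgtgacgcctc
Rpl39 (chrX:37085213-37085242, - strand): CCCCCCCTaagctccgcctctagcgacttc
Rpl39l (chr16:10170211-10170240, + strand): agctcccaggCCTTTCCggatttccggtgg

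Other genes of the pathway were followed as lists. Of 22 genes whose transcripts are known to begin with a pyrimidine tract, most of them translation factors and with the noncoding Gas5 and the splicing factor Hnrnpa1 among them, 14 were lower and 4 higher in saline germ than somatic cells, with a median of -0.64, so they lay near the ribosomal protein genes. Tpt1 (-2.39 ± 0.08), the translationally controlled tumor protein, and Eif4a2 (-2.25 ± 0.11), an RNA helicase of translation initiation, were among the lower, and Pabpc1 (0.93 ± 0.09), which binds poly(A) tails, among the higher. Of 30 genes of ribosome biogenesis 24 were higher and 3 lower in germ cells, with a median of 1.08. Examples are Heatr1 (3.56 ± 0.08) and Utp20 (2.69 ± 0.10), of the small subunit processome, and Bop1 (1.69 ± 0.08) and Pes1 (1.34 ± 0.08), which act on the large subunit. Of 15 RNA polymerase I genes 11 were higher and 1 lower, with a median of 0.49, among them Polr1b (2.15 ± 0.09), the second largest subunit of the enzyme. The lists for making ribosomal RNA and assembling ribosomes thus stood on the other side of 0 from the ribosomal protein genes themselves, a description without a test of the difference.

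Few of these genes were called for dex. Hnrnpa1 fell in germ cells (-0.38 ± 0.07, adjusted p = 0.0233) and in somatic cells (-0.42 ± 0.09, adjusted p = 0.0157). In germ cells Ubtf, the nucleolar factor that binds ribosomal DNA, fell (-0.31 ± 0.07, adjusted p = 0.0461), and Ddit4, an inhibitor of mTOR complex 1 induced by glucocorticoids, and Mycn rose (1.61 ± 0.18, adjusted p = 0.00057, and 0.46 ± 0.09, adjusted p = 0.0222). None of the 30 biogenesis genes was called in either population by edgeR. In germ cells they leaned lower, with a median of -0.11 beside -0.00 for all genes and 5 of 30 above 0. Unadjusted p was under 0.05 for 7, with 0 of them higher, beside 14.7% of all genes in either direction. All dex libraries lay below all saline libraries for 7, where 9.55% of all genes did. In somatic cells the median was -0.05, 11 lay above 0, and 3 had an unadjusted p under 0.05, 1 of them higher.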

How the data were processed

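The authors selected mRNA on poly-dT beads, sequenced paired ends, aligned them to mm10 with HISAT2 2.0.5 and counted reads per gene with featureCounts 1.5.0-p3. The annotation release, the strand setting and the treatment of reads with several placements are not given in the sources used here. The authors deposited raw counts and FPKM values for 12 libraries, and tables of fold changes and p-values from DESeq2 1.20.0, which were not used.

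Groups and replicate numbers came from the labels. Each comparison was fitted on its 6 libraries with edgeR 4.0.16 (R 4.3.3), on counts, with TMM, filterByExpr at a minimum count of 10, the quasi-likelihood test and Benjamini-Hochberg adjustment over all genes tested, and the difference of dex effects on all 12. Genes with an adjusted p of 0.05 or less are called. The SE is the log2 fold change divided by the square root of F. Alternatives used limma 3.58.1 and DESeq2 1.42.0. CPM were scaled by TMM. Scripts were tested on simulated data. p-values measure the spread between pooled libraries.

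Copies were sought as shared 64-base words between annotated transcripts (GENCODE M21), since no genome was used. Protein sequences were not used here. Start windows came from RefSeq, with 66 of 86 members matched by symbol. Members and lists were chosen with earlier results of these data known. Named were the paralogs with their parents, stalk genes, Rpsa, Rps6, Rps27a, Rpl5, Rpl11 and Rps19bp1, the members called (up to 10 in each direction by size), and for dex also the smallest p up to 3 a direction. Rpl26, Rpl34, Rpl17, Rpl24 and genes in small counts were named after their values were seen.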

Additional observations from a re-analysis of the deposited data

Results flagged for a closer look

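Among the ribosomal protein genes and the lists beside them, 2 genes, neither of them a ribosomal protein gene, had a dex effect that differed between germ and somatic cells when the difference itself was tested over all 12 libraries with edgeR. They come from the 86 members and lists of 22, 30, 15, 16 and 78 genes. Of all 20551 genes tested 0.827% were called, so a count of 2 is near the background. Ddit4, an inhibitor of mTOR complex 1, had a log2 fold change of 1.61 ± 0.18 in germ and 0.16 ± 0.12 (adjusted p = 0.589) in somatic cells, a difference of 1.49 ± 0.27 (adjusted p = 0.0152). Gas5, a noncoding host of small nucleolar RNAs whose transcript begins with a pyrimidine tract, had -0.59 ± 0.15 (adjusted p = 0.0737) in germ and 0.26 ± 0.10 (adjusted p = 0.203) in somatic cells, a difference of -0.82 ± 0.18 (adjusted p = 0.0462).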

How the results depend on the processing

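The count of members called for dex against saline in germ cells (1) became 2 with DESeq2, 7 without a filter on low counts, and 0 with limma-trend on log2(FPKM + 0.1) or log2(FPKM + 1), in one fit of all 12 libraries and with copy rows added to their parents (the last chosen after seeing the data), and it ranged from 0 to 3 when single libraries were left out (2 without dex germ 2, 3 without saline germ 3, 0 without any of the other 4). In somatic cells (0) it became 5 with DESeq2, 12 without the filter and 1 with an offset for gene length, and ranged from 0 to 1 without single libraries (1 without dex somatic 3, saline somatic 1 or saline somatic 2); for the difference of effects (0) it became 2 without the filter. Among all genes the calls for dex in germ cells were 231 of 18550, 713 of 18550 with DESeq2 and 767 of 33910 without the filter. Without dex germ 2 they were 265 of 19195, and without saline germ 3 they were 213 of 19253. In somatic cells they were 655 of 16766, 982 with DESeq2, 654 with the length offset and 1061 of 27937 without the filter. For the difference of effects they were 170 of 20551, and 706 of 35743 without the filter. Causes were not tested. The replicate numbers were entered as a block although correlations of same-numbered libraries were weak (r from -0.0879 to 0.0444) and no source pairs them: the block gave 0 members called in germ and 1 in somatic cells for dex, and 77 against 73 for germ against somatic cells in saline. Among all genes the block gave, in the same order, 65 of 18550, 669 of 16766 and 14157 against 14441 of 18870. In saline, between germ and somatic cells, every library correlated best with its own number (r 0.0367 to 0.0444), and Rpl26 was high in the second library of both populations. In dex libraries Rpl26 was highest in library 3 of both populations (92.4 and 95.5 CPM). Same-numbered dex germ and somatic libraries, however, correlated at r of -0.0165 to -0.00295. These are hints from the data and not the design. The median log2 fold change of germ over somatic cells stayed below 0 in every alternative: the saline value became -0.57 when libraries were scaled by their totals, -0.58 with limma-trend at either pseudocount and -0.83 with the length offset, and in dex -0.63, -0.69 (pseudocount 1) and -0.96. Library totals also moved the median of all genes from 0.072 to 0.207 in saline and from 0.119 to 0.302 in dex. Of single genes, Rps10 turned to 0.01 for dex in germ cells with copies added, and Rpl39l to -0.01 for the difference of effects with limma-trend on log2(FPKM + 1).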

Other observations

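Mitochondrial ribosomal proteins, which belong to a separate ribosome of the organelle, had no such lower level in germ cells. Of 77 tested in saline libraries 32 were higher and 14 lower in germ than in somatic cells, with a median log2 fold change of 0.16, where 39.8% of all genes were higher and 36.7% lower. In dex libraries 27 were higher and 21 lower, with a median of 0.06. For dex against saline in germ cells 1 was called, Mrpl49 (-0.43 ± 0.10, adjusted p = 0.0477, edgeR), beside 1.25% of all genes. There 16 of 77 lay above 0, with a median of -0.09. Unadjusted p was under 0.05 for 13, 2 of them higher, beside 14.7% of all genes. All dex libraries lay below all saline libraries for 13, where 9.55% of all genes did, and above for 1, where 10.5% did. In somatic cells 0 were called, beside 3.91% of all genes. The median there was 0.01, with 5 at an unadjusted p under 0.05, 4 of them higher.

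Of 16 regulators of ribosome production, 7 were higher and 8 lower in saline germ cells, shares not far from those of all genes. Mtor (2.25 ± 0.10) and Larp1 (1.12 ± 0.08), the kinase and the factor that binds pyrimidine tracts, were higher, and Myc (-3.47 ± 0.18), Mycn (-0.96 ± 0.09) and Akt1s1 (-2.13 ± 0.14), an inhibitory partner of mTOR complex 1, were lower. Across the 77 core ribosomal protein genes the log2 gene length and the log2 fold change of germ over somatic cells in saline had a Pearson correlation of 0.15, a description across genes of the same libraries.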
